A study of Mus with 12 samples.

Results

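The 10 genes described here encode MAP kinase phosphatases of the dual-specificity family: Dusp1, Dusp2, Dusp4, Dusp5, Dusp6, Dusp7, Dusp8, Dusp10, Dusp14 and Dusp16. They were chosen by gene name, and each matched 1 of the 27294 rows of the deposited table. All 10 passed the filter on low counts, which kept 17291 genes for testing. Expression was measured by RNA sequencing of poly(A) RNA from cells labelled as primary mouse peritoneal macrophages, in 12 libraries that form 4 groups of 3. The groups were untreated wild type (WT), WT with oxLDL, untreated knockout (KO) and KO with oxLDL, where oxLDL is oxidised low-density lipoprotein, a damaged cholesterol carrier that macrophages take up. The genotype label says KO and names no gene; WEE1, a kinase that holds cells back from mitosis, appears in the series title. The deletion strategy, any promoter driving it, the age of the mice and the dose and time of oxLDL were not found in the labels used here. The treatment label reads oxLDL where the sample titles read LDL, and the samples called untreated carry no treatment label. Nothing in the labels says whether the replicates came from separate animals, so p-values measure the spread between these libraries, which may be technical.

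MAP kinases (ERK, JNK and p38) relay signals from receptors at the cell surface to transcription, and they are switched on when a threonine and a tyrosine in their activation loop are phosphorylated. Dual-specificity phosphatases take both phosphates off and so switch the kinases off. Several of their genes are themselves induced by the pathways they shut down, which makes them feedback brakes. In macrophages Dusp1 is known for limiting p38 and JNK signalling and cytokine output after Toll-like receptor stimulation.

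Library totals ran from 53588814 to 76809931 counts, and WT replicate 2 was the shallowest library of both WT groups. Wee1 stood at 2.80 to 3.25 FPKM (fragments per length of transcript and library size) in untreated WT, 1.44 to 1.78 in WT with oxLDL, 1.22 to 1.63 in untreated KO and 1.25 to 1.60 in KO with oxLDL, with ranges that overlapped between genotypes with oxLDL. The fitted log2 difference of KO from WT was -0.93 ± 0.14 untreated and -0.53 ± 0.14 with oxLDL (edgeR adjusted p = 0.000139 and 0.00587), and the transcript was present in every library. A gene-level count does not show which exon was deleted, so Wee1 is a weak check of the labels. The 9 general macrophage markers were all expressed in each group. Their summed FPKM was 21108 to 21507 in untreated WT, 14953.5 to 15935.6 with oxLDL, 11176 to 11886 in untreated KO and 10731.5 to 11378.8 with oxLDL. Lyz2 carried most of this sum (18498 FPKM untreated WT, 8857 untreated KO). Adgre1 (545 and 158), Csf1r (273 and 131), Itgam (202 and 155), Cd14 (82.7 and 24.4), Mertk (57.0 and 48.4) and Fcgr1 (40.9 and 9.32) were also lower in untreated KO. Only Cd68 (1629 and 2001) and Mrc1 (41.7 and 79.98) were higher. The 6 markers of large resident peritoneal macrophages were low throughout, with sums of 4.98 to 5.32 FPKM for untreated WT, 3.77 to 4.62 for WT plus oxLDL, and 2.71 to 3.002 over both KO groups. Among them Timd4 averaged 1.47 and 1.75 FPKM in the WT groups and 0.013 and 0.094 in KO, and Gata6 averaged at most 0.25 in any group. Several marker sums of other cell types separated the genotypes. Those of T and NK cells ran from 2.18 to 3.78 FPKM over the WT libraries and 0.769 to 0.884 over the KO libraries, of mast cells from 3.12 to 6.10 and 1.09 to 1.64, of eosinophils from 0.0837 to 0.520 and 2.78 to 3.21, and of dendritic cells from 0.128 to 0.170 and 0.337 to 0.648. The eosinophil sum was mostly Siglecf (0.45 FPKM in untreated WT, 3.10 in untreated KO). Most of the dendritic cell sum in KO was Cd209a (0 FPKM in untreated WT, 0.45 in untreated KO), while Zbtb46 was lower in untreated KO (0.12 and 0.079). Cd4 made up most of the T and NK cell sum in untreated WT (2.08 FPKM, against 0.55 in untreated KO). Neutrophil markers were highest in WT given oxLDL, at 4.93 to 5.49 FPKM against 2.12 to 3.88 over the other groups. Most of the sum in WT with oxLDL was S100a8 (3.60 FPKM), while Cxcr2 went the other way, at 0 FPKM there and 0.99 in KO with oxLDL. B cell markers (0.927 to 2.53) and those of mesothelial cells and fibroblasts (7.36 to 10.6) overlapped between genotypes with treatments pooled. Untreated, the B cell sums overlapped as well, at 1.03 to 1.76 FPKM in WT and 1.71 to 2.53 in KO. With oxLDL the B cell sums were apart, at 0.927 to 1.18 FPKM in WT and 1.86 to 2.10 in KO. Untreated, the mesothelial and fibroblast sums were apart, at 9.88 to 10.6 FPKM in WT and 7.36 to 8.44 in KO. With oxLDL these sums overlapped, at 7.74 to 9.12 FPKM in WT and 8.19 to 8.80 in KO. The part of these marker differences in the results below was not tested, and in bulk RNA fewer cells of a type cannot be told apart from less RNA per cell.

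Phosphatase expression followed 3 broad patterns over the 4 groups. Dusp16, Dusp4 and Dusp1 were high in WT with oxLDL and low in both KO groups. Dusp2 was low in untreated WT and about equally high in the other 3 groups. Dusp8 and Dusp10, genes of low expression, were higher in KO than in WT whatever the treatment. Dusp6 was lower in KO with or without oxLDL, while Dusp5, Dusp7 and Dusp14 followed none of these patterns.

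**Figure D1:**
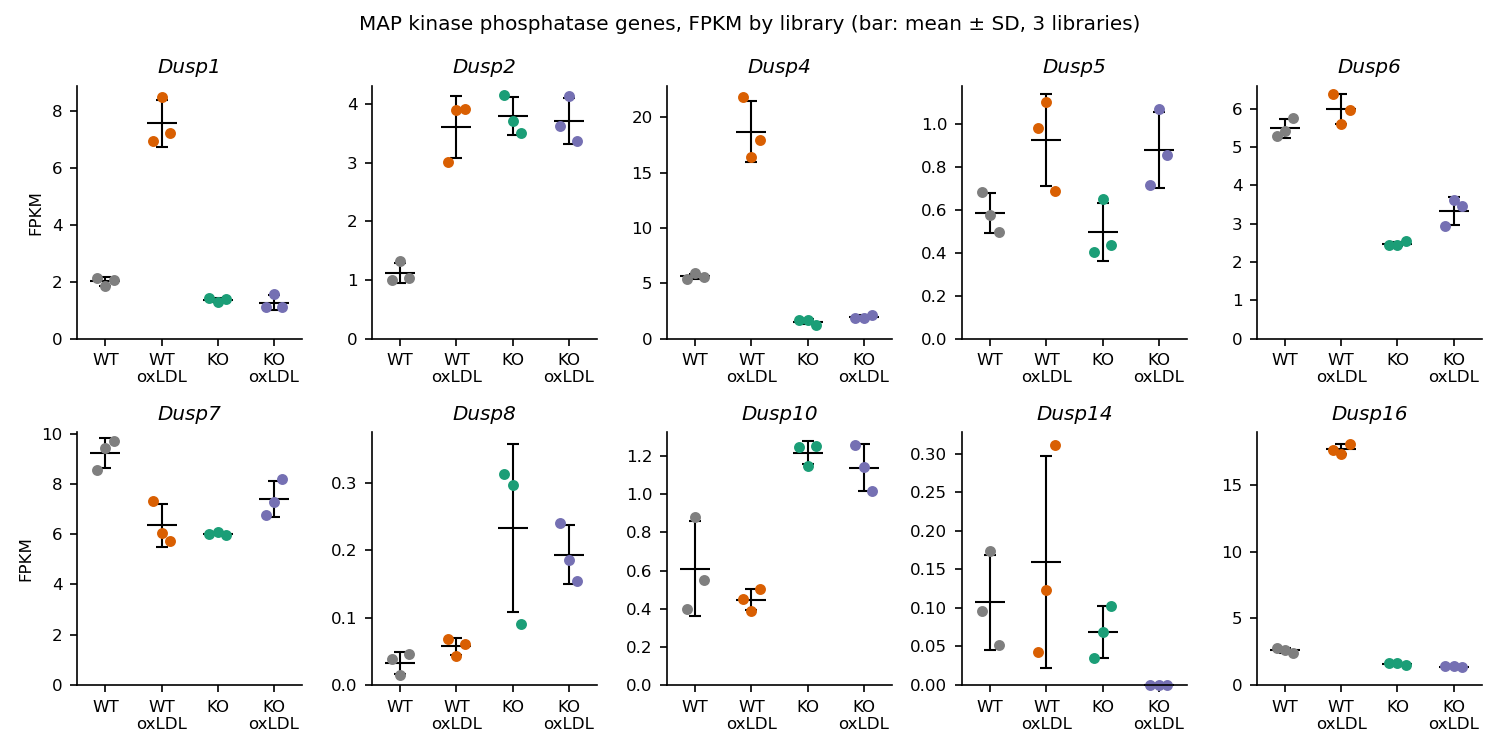
FPKM of each of the 10 phosphatase genes in the 12 libraries, with 1 point per library and a black bar for the group mean ± SD (n = 3). Dusp16, Dusp4 and Dusp1 peak in WT with oxLDL, Dusp2 is low in untreated WT, Dusp8 and Dusp10 are higher in both KO groups, and Dusp14 is at 0 in all 3 libraries of KO with oxLDL.

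In WT macrophages 6 of the 10 genes rose with oxLDL and 0 fell. Over all genes tested 51.2% were called in this comparison, 23.9% higher and 27.2% lower, at a Benjamini-Hochberg adjusted p under 0.05 in edgeR's quasi-likelihood test. The median log2 change was 1.11 over the 10 phosphatases and -0.06 over all genes tested. In KO macrophages 0 of 10 passed the same test, where 0.0116% of all genes did. Without adjustment 6 of the 10 had p under 0.05 in KO, 4 of them higher (Dusp4, Dusp5, Dusp6 and Dusp7) and 2 lower (Dusp14 and Dusp16), against 7% of all genes (4.74% higher and 2.26% lower), and DESeq2 called 1 of the 10, Dusp6. The interaction, obtained by subtracting the WT change from the KO change, was called for 6 of 10 genes. It was negative for Dusp1, Dusp2, Dusp4, Dusp14 and Dusp16 and positive for Dusp7. Of all genes tested 41.7% were called in the interaction, with 19.6% of all genes negative and 22.1% positive.

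Comparing genotypes, 8 of 10 genes differed in untreated cells, with Dusp2, Dusp8 and Dusp10 higher in KO and Dusp1, Dusp4, Dusp6, Dusp7 and Dusp16 lower. Of all genes tested 31% were called there, 14.8% higher and 16.2% lower in KO. With oxLDL 7 of 10 differed, Dusp8 and Dusp10 higher in KO and Dusp1, Dusp4, Dusp6, Dusp14 and Dusp16 lower. The share of all genes called with oxLDL was 57.9%, with 30.6% higher and 27.4% lower in KO. The median log2 difference of KO from WT over the 10 genes was -0.48 untreated and -0.76 with oxLDL, against -0.01 and 0.05 over all genes. The oxLDL change in WT, the untreated genotype difference and the interaction share the untreated WT libraries, so their values are not independent of each other.

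These changes are relative to TMM scaling, which corrects library totals for differences in RNA make-up. WT libraries with oxLDL had TMM factors of 0.832 to 0.843, and the other groups of 1.03 to 1.13, so the ratio of 2 FPKM values can differ from the fitted change beside it. With library totals alone the median of all genes moved to -0.46 with oxLDL in WT and to 0.36 for KO against WT with oxLDL. The share of called genes that were higher was then 21.1% in place of 46.8% for oxLDL in WT, 31.5% in place of 47.8% for untreated KO against WT, 69.5% in place of 52.8% for that difference with oxLDL, and 79.6% in place of 53% for the interaction. Among the phosphatases this scaling changed the calls with oxLDL in WT to 5 higher and 1 lower, because Dusp6 no longer passed and Dusp7 was called lower.

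**Figure D2:**
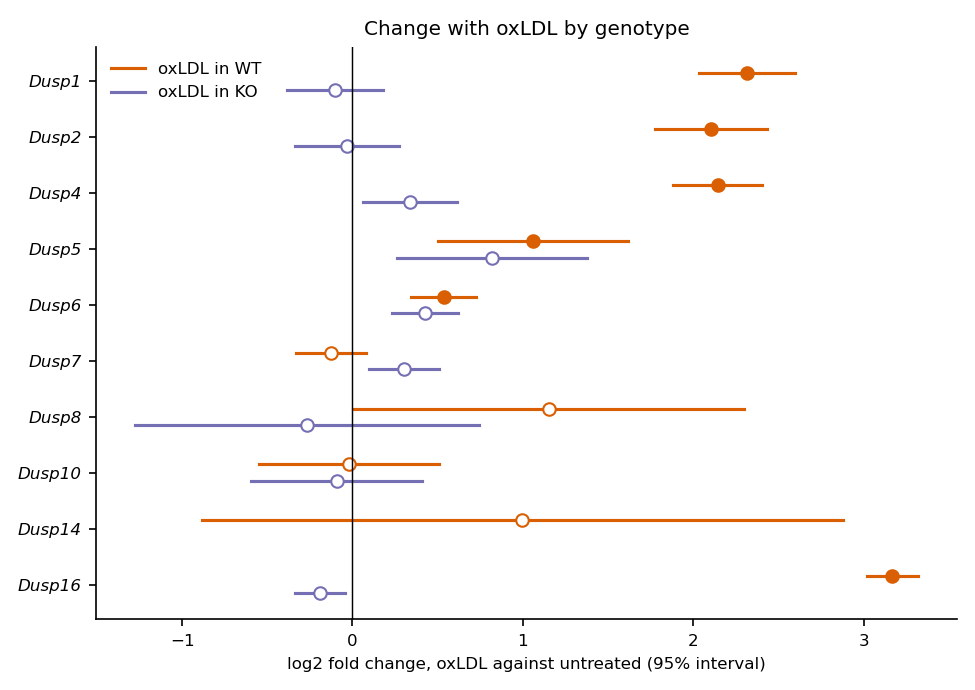
Fitted log2 fold change with oxLDL in WT (orange) and in KO (purple) for each gene, with 95% intervals; filled points passed the adjusted test and open points did not. Dusp1, Dusp2, Dusp4 and Dusp16 lie above 2 in WT and between -0.19 and 0.34 in KO, while the intervals of Dusp5, Dusp6, Dusp8 and Dusp10 overlap between genotypes. Dusp14 in KO is not drawn, because all 3 libraries with oxLDL held 0 counts.

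The nuclear phosphatases that are induced by stimulation, Dusp1, Dusp2, Dusp4 and Dusp5, all rose with oxLDL in WT. Dusp4 (ENSMUSG00000031530, chromosome 8, 34807297 to 34819894, plus strand), which acts on ERK, JNK and p38 in the nucleus, stood at 5.39, 5.90 and 5.59 FPKM in untreated WT and at 21.8, 16.4 and 17.95 after oxLDL in the same genotype. The KO libraries held 1.70, 1.66 and 1.26 FPKM untreated and 1.83, 1.88 and 2.14 with oxLDL. Every WT library was thus above every KO library, and the WT libraries with oxLDL were above the untreated ones. The log2 change in WT was 2.14 ± 0.12 (SE, adjusted p = 1.5e-09 in edgeR's test). In KO it was 0.34 ± 0.13, with FPKM ranges that did not overlap but an edgeR adjusted p of 0.576. The difference between these changes was -1.81 ± 0.17 (edgeR adjusted p = 9.43e-07). KO was lower than WT, at a log2 difference of -1.76 ± 0.13 untreated and -3.57 ± 0.13 with oxLDL, or 0.295 and 0.0844 times the WT level on the fitted scale.

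Dusp1 (ENSMUSG00000024190, chromosome 17, 26505590 to 26562128, minus strand), the brake on p38 and JNK, showed a similar pattern from a lower level. It had 2.14, 1.84 and 2.05 FPKM in untreated WT and 6.97, 8.52 and 7.23 with oxLDL. The untreated KO libraries had 1.42, 1.28 and 1.39 FPKM and those with oxLDL 1.12, 1.55 and 1.12, so the KO ranges overlapped each other and lay below both WT ranges. Dusp1 rose by 2.32 ± 0.13 log2 in WT (edgeR adjusted p = 1.37e-09) and was at -0.11 ± 0.13 in KO (adjusted p = 0.986), and the interaction was -2.42 ± 0.18. The genotype difference of -0.45 ± 0.13 in untreated cells was small, with an edgeR adjusted p of 0.0149 that went to 0.0604 without WT untreated replicate 1 and to 0.0558 without KO untreated replicate 2. With oxLDL it was -2.87 ± 0.13. The deposited Dusp1 interval also covers Ergic1 on the other strand, and reads could have been shared if counting ignored strand, which was not tested. The log2 change of Ergic1 was -0.31 ± 0.05 with oxLDL in WT, and its difference of untreated KO from WT was 0.55 ± 0.05.

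Dusp2 (ENSMUSG00000027368, chromosome 2, 127336159 to 127338376, plus strand), a nuclear phosphatase known from activated leukocytes, differed from Dusp1 and Dusp4 in the KO groups. In WT it went from 0.997, 1.32 and 1.04 FPKM to 3.004, 3.90 and 3.92 with oxLDL. Untreated KO libraries already had 4.15, 3.71 and 3.52 FPKM, and KO libraries with oxLDL had 3.62, 4.14 and 3.37. The 3 untreated WT libraries were thus the low ones, and the other 3 groups overlapped. The rise in WT was 2.11 ± 0.15 log2 (edgeR adjusted p = 2.38e-08), and untreated KO exceeded untreated WT by 1.87 ± 0.15 (edgeR adjusted p = 1.67e-07). In KO the change with oxLDL was -0.03 ± 0.14, with a 95% interval of -0.34 to 0.27, and the interaction was -2.14 ± 0.21. With oxLDL the genotypes differed by -0.26 ± 0.14 (95% interval -0.57 to 0.04), which did not pass, although it did at -0.39 without WT oxLDL replicate 1.

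Dusp5 (ENSMUSG00000034765, chromosome 19, 53529109 to 53542431, plus strand) removes phosphate from ERK in the nucleus and was a gene of low expression. WT libraries stood at 0.498 to 0.681 FPKM untreated and 0.688 to 1.10 with oxLDL, and KO libraries at 0.403 to 0.651 untreated and 0.714 to 1.07 with oxLDL. Within each genotype the libraries with oxLDL were above the untreated ones, and between genotypes the ranges overlapped. Dusp5 rose by 1.06 ± 0.26 log2 in WT (edgeR adjusted p = 0.00331). In KO the change was 0.82 ± 0.26, with an unadjusted p of 0.00718 in edgeR's test and an adjusted p of 0.423. The difference between the changes was -0.24 ± 0.36, with a 95% interval of -1.02 to 0.54 that leaves room for a difference of either sign.

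The ERK phosphatases of the cytoplasm, Dusp6 and Dusp7, had smaller fitted changes with oxLDL in WT than the nuclear ones. Dusp6 (ENSMUSG00000019960, chromosome 10, 99263231 to 99267489, plus strand) had 5.29, 5.42 and 5.76 FPKM in untreated WT and 6.40, 5.61 and 5.98 with oxLDL, ranges that overlapped. The KO libraries had 2.44, 2.45 and 2.54 FPKM untreated and 2.93, 3.62 and 3.47 with oxLDL, all below the WT libraries. The log2 difference of KO from WT was -1.04 ± 0.09 untreated and -1.15 ± 0.09 with oxLDL (edgeR adjusted p = 3.74e-07 and 3.91e-08). With oxLDL Dusp6 rose in WT by 0.54 ± 0.09 log2 on the TMM scale (edgeR adjusted p = 0.000129), but with library totals alone the change was 0.13 and did not pass. In KO the change was 0.43 ± 0.09, the smallest unadjusted p of the 10 genes in that comparison (0.000337), with an adjusted p of 0.209 in edgeR and 0.00989 in DESeq2. The interaction was -0.11 ± 0.13, with a 95% interval of -0.38 to 0.16.

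Dusp7 (ENSMUSG00000053716, chromosome 9, 106368632 to 106375724, plus strand) was the most abundant of the 10 genes by FPKM in 3 of the 4 groups. WT libraries had 8.54, 9.42 and 9.70 FPKM untreated and 7.32, 6.04 and 5.71 with oxLDL, and KO libraries 5.99, 6.08 and 5.97 untreated and 6.77, 7.28 and 8.19 with oxLDL. By FPKM untreated WT was the high group, while after TMM scaling the WT ranges overlapped. The log2 change with oxLDL in WT was -0.13 ± 0.09 and did not pass, but it passed at -0.53 with library totals, at -0.48 with limma on log2(FPKM + 1) and at -0.24 without WT oxLDL replicate 1. In KO it was 0.30 ± 0.09 (edgeR adjusted p = 0.423). The interaction of 0.43 ± 0.13 had an edgeR adjusted p of 0.019, which became 0.052 without WT oxLDL replicate 3 and 0.077 without replicate 2 of both WT groups, an alternative chosen after seeing the data. Untreated KO was below untreated WT, at a log2 difference of -0.51 ± 0.09 (edgeR adjusted p = 0.000705).

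Dusp16, Dusp10 and Dusp8 encode phosphatases that prefer JNK and p38. Dusp16 (ENSMUSG00000030203, chromosome 6, 134715468 to 134792625, minus strand) had the largest rise of the 10 genes with oxLDL in WT. Untreated WT libraries had 2.80, 2.63 and 2.40 FPKM and those with oxLDL 17.7, 17.3 and 18.1. KO libraries had 1.62, 1.63 and 1.47 FPKM untreated and 1.39, 1.39 and 1.34 with oxLDL. The 4 groups did not overlap, and the order from high to low was WT with oxLDL, untreated WT, untreated KO and KO with oxLDL. The change in WT was 3.17 ± 0.07 log2, or 8.99-fold (edgeR adjusted p = 9.04e-14), and in KO it was -0.19 ± 0.07 (edgeR adjusted p = 0.52). The interaction was -3.36 ± 0.10 (edgeR adjusted p = 4.6e-12). The log2 difference of KO from WT was -0.63 ± 0.07 untreated and -3.99 ± 0.07 with oxLDL, the latter being 0.0631 times the WT level on the fitted scale.

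Dusp10 (ENSMUSG00000039384, chromosome 1, 184013302 to 184075636, plus strand) did not follow oxLDL in either genotype. WT libraries had 0.398, 0.882 and 0.550 FPKM untreated and 0.450, 0.390 and 0.503 with oxLDL. KO libraries had 1.25, 1.15 and 1.26 FPKM untreated and 1.26, 1.14 and 1.02 with oxLDL, all above the WT libraries. KO exceeded WT by 1.11 ± 0.24 log2 untreated (edgeR adjusted p = 0.00242) and by 1.04 ± 0.24 with oxLDL (edgeR adjusted p = 0.002). The changes with oxLDL were -0.02 ± 0.25 in WT and -0.09 ± 0.23 in KO, with 95% intervals of -0.55 to 0.50 and -0.60 to 0.41.

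Dusp8 (ENSMUSG00000037887, chromosome 7, 142079490 to 142095843, minus strand) rested on few reads, with 4 to 121 counts in a library. WT libraries had 4 to 18 counts untreated and 12 to 26 with oxLDL. KO libraries had 35 to 121 counts untreated, of which replicate 3 was the low one, and 61 to 95 with oxLDL, all above the WT libraries. KO exceeded WT by 2.85 ± 0.53 log2 untreated (edgeR adjusted p = 0.000656) and by 1.43 ± 0.50 with oxLDL (edgeR adjusted p = 0.0236). The latter did not pass without WT oxLDL replicate 2 (1.26), without WT oxLDL replicate 3 (1.48) or without KO oxLDL replicate 1 (1.24). The change with oxLDL was 1.15 ± 0.53 in WT (edgeR adjusted p = 0.0889) and -0.27 ± 0.47 in KO. The interaction of -1.42 ± 0.71 did not pass (adjusted p = 0.132), but without KO untreated replicate 3 it was -1.80 with an edgeR adjusted p of 0.0327, and the change in WT passed as well at 0.0433.

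Dusp14 (ENSMUSG00000018648, chromosome 11, 84048041 to 84068801, minus strand) encodes a small phosphatase without the domain by which the larger members bind MAP kinases. Untreated WT libraries held 16, 20 and 8 counts, those with oxLDL 7, 15 and 48, and the KO libraries 6, 11 and 16 untreated and 0, 0 and 0 with oxLDL. Only the KO libraries with oxLDL lacked it, and the other 3 groups overlapped. With 3 counts per group as the floor, KO with oxLDL was at least 32.5-fold lower than WT with oxLDL (edgeR adjusted p = 0.000411), a bound in which 48 of the 70 WT counts came from replicate 3. Against untreated KO it was at least 11.2-fold lower, which did not pass (edgeR adjusted p = 0.269). The interaction passed in edgeR (adjusted p = 0.00384) and did not in limma on log2(FPKM + 1), at an adjusted p of 0.213. At a mean of 0.0839 FPKM over the 12 libraries, a full absence from KO with oxLDL and a low level cannot be told apart.

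**Figure D3:**
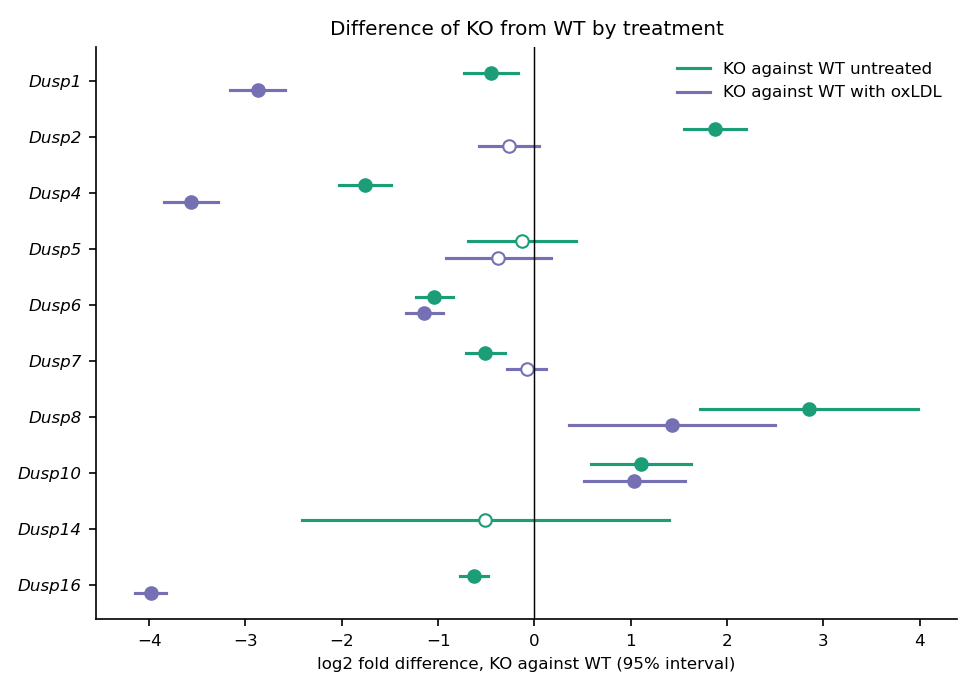
Fitted log2 difference of KO from WT in untreated cells (green) and with oxLDL (purple) for each gene, with 95% intervals; filled points passed the adjusted test and open points did not. Dusp1, Dusp4 and Dusp16 lie further below 0 with oxLDL than untreated, Dusp2 lies at 1.87 untreated and near 0 with oxLDL, and Dusp6 and Dusp10 have nearly the same value in both; Dusp14 with oxLDL is not drawn, because all 3 KO libraries held 0 counts.

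The ranking of the genes by FPKM, which allows for transcript length, changed with oxLDL in WT. In untreated WT Dusp7 led at 9.22 ± 0.61 FPKM (SD, n = 3), followed by Dusp4 at 5.63 ± 0.25 and Dusp6 at 5.49 ± 0.24, which overlapped each other. With oxLDL Dusp4 at 18.7 ± 2.8 and Dusp16 at 17.7 ± 0.38 led and overlapped, and Dusp1, Dusp7 and Dusp6 followed at 7.57 ± 0.83, 6.36 ± 0.85 and 5.99 ± 0.40, each overlapping the next. In untreated KO Dusp7 led at 6.01 ± 0.06 FPKM before Dusp2 at 3.79 ± 0.32 and Dusp6 at 2.48 ± 0.06. In KO with oxLDL the order at the top was the same, with Dusp7 at 7.41 ± 0.72, Dusp2 at 3.71 ± 0.39 and Dusp6 at 3.34 ± 0.36, the latter pair overlapping. Dusp8 and Dusp14 were the lowest pair in each group.

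Summed over the 10 genes, FPKM was 27.4 ± 0.93 in untreated WT, 61.6 ± 2.8 in WT with oxLDL, 18.8 ± 0.67 in untreated KO and 21.3 ± 1.2 in KO with oxLDL (SD, n = 3). Dusp4 and Dusp16 made up 30.3% and 28.8% of the sum in WT with oxLDL, against 20.5% and 9.54% in untreated WT. Dusp7 made up 33.6% of the untreated WT sum and 10.3% of the sum with oxLDL, and it held 32.1% and 34.9% in the KO groups. Dusp2 made up 4.07% in untreated WT and 20.2% in untreated KO. These shares describe transcripts and say nothing of the amount of protein.

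**Figure D4:**
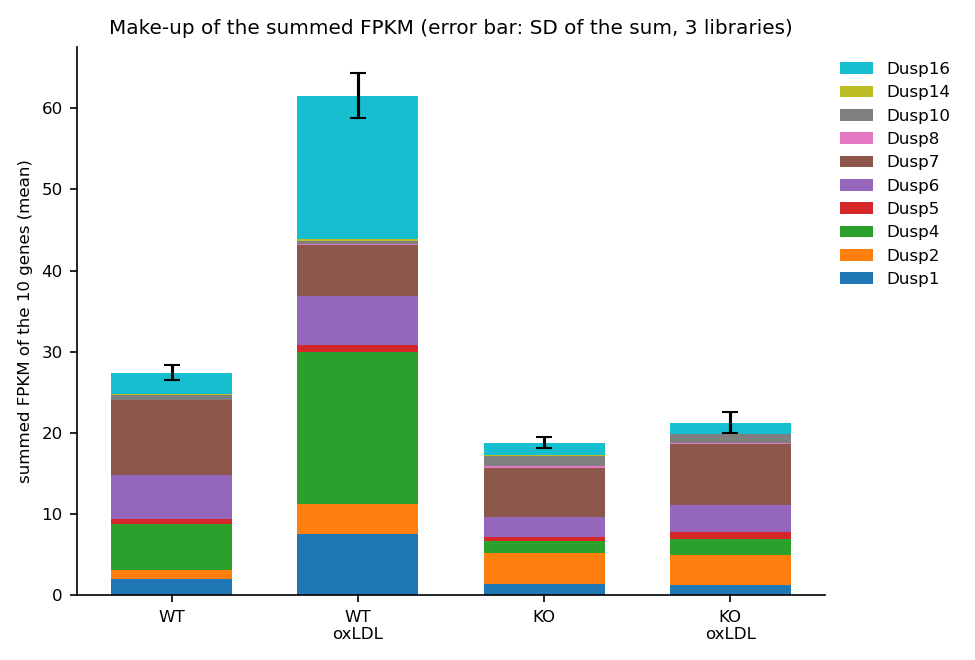
Mean FPKM of the 10 phosphatase genes stacked for each group, with an error bar for the SD of the sum over 3 libraries. The sum is highest in WT with oxLDL at 61.6 FPKM, where Dusp4, Dusp16 and Dusp1 fill most of the bar, and it lies between 18.8 and 27.4 FPKM in the other 3 groups.

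The kinases that these phosphatases act on changed in both directions with oxLDL in WT, where 51.2% of all genes were called, 23.9% higher and 27.2% lower. Of 11 MAP kinase genes tested 3 rose and 2 fell, with a median log2 change of 0.02, and with library totals alone 1 rose and 6 fell. With library totals alone 10544 of all 17291 genes were called, 21.1% of them higher. The shares of 23.9% and 27.2% here and below are those with TMM scaling. Whether this list or the lists that follow differ from all genes was not tested. Mapk6, an atypical MAP kinase, was at 25.0 ± 0.67 FPKM untreated and 35.3 ± 0.56 with oxLDL, a rise of 0.91 log2. Mapk14, which encodes the main p38 kinase, fell from 35.5 ± 0.91 to 16.3 ± 1.1 FPKM (-0.71). Of the 7 MAP kinase kinases 4 rose and 2 fell, against 3 and 4 with library totals alone. Among them Map2k1, which activates ERK, rose from 21.0 ± 0.90 to 57.8 ± 1.5 FPKM (1.87) and stood at 16.8 and 16.1 FPKM in the KO groups. Of 18 MAP3 kinases, the enzymes at the top of the cascade, 3 rose and 8 fell (23.9% and 27.2% of all genes), with Map3k1 at -1.55. With library totals alone 2 of them rose and 10 fell. Map3k8, which links Toll-like receptors to ERK, rose by 1.01 log2.

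Kinases that are activated by MAP kinases moved apart from each other. Of 10 tested 3 rose and 5 fell with oxLDL in WT (2 and 6 with library totals alone), beside the 23.9% higher and 27.2% lower over all genes. Mapkapk2, the p38 target that stabilises cytokine transcripts, rose from 136 ± 4.9 to 319 ± 11 FPKM (1.63 log2) and was at 57.2 and 56.9 FPKM in the KO groups. Mknk2, a kinase of a translation initiation factor, fell from 43.5 ± 1.6 to 6.58 ± 0.54 FPKM (-2.32) and was at 55.7 and 64.3 FPKM in KO.

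Other brakes on the ERK cascade rose more often than they fell with oxLDL in WT, at 7 and 3 of 12 tested with a median of 0.49, but with library totals alone 3 rose and 4 fell; over all genes 23.9% were higher and 27.2% lower. Spred1, an inhibitor of RAS and RAF signalling, rose from 16.3 ± 0.43 to 53.1 ± 1.2 FPKM (2.12 log2), against 5.08 and 4.90 in the KO groups. Spry1, a feedback inhibitor of receptor tyrosine kinases, rose from 0.121 ± 0.016 to 0.936 ± 0.40 FPKM (3.33). The other dual-specificity phosphatases, some of which also act on MAP kinases, fell more often. Of 15 tested 3 were higher and 8 lower, with a median of -0.70 (1 and 12 with library totals alone), beside the same shares over all genes. Dusp3, a small phosphatase of this family, fell from 48.4 ± 0.65 to 16.5 ± 0.55 FPKM (-1.15) and was at 71.9 and 71.7 FPKM in the KO groups. With oxLDL in WT, each pathway gene named so far kept its direction and its call with DESeq2, with limma on FPKM and in edgeR with 3 other scalings. This did not hold for Mapk9 and Rasa2, the next by interaction p in their lists, which rose by 0.51 and 0.59 log2. They did not pass with library totals alone (edgeR adjusted p = 0.0852 and 0.0673) or with limma on log2(FPKM + 1) (adjusted p = 0.0662 and 0.126).

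In KO 0 genes of these 6 lists were called with oxLDL by edgeR's test, and DESeq2 called 1, a MAP3 kinase. The interaction was called for 5 of 11 MAP kinases, 5 of 7 MAP kinase kinases, 9 of 18 MAP3 kinases, 8 of 10 kinases activated by MAP kinases, 9 of 12 other ERK brakes and 10 of 15 other dual-specificity phosphatases, against the 41.7% of all genes given above. Of the called ERK brakes 7 were negative and 2 positive, which with library totals alone became 3 and 4. Of the called other dual-specificity phosphatases 2 were negative and 8 positive, and with library totals alone 0 and 10. Between genotypes with oxLDL, where 30.6% of all genes were higher in KO and 27.4% lower, 2 of the ERK brakes were higher and 7 lower (4 and 6 with library totals alone). Of the other dual-specificity phosphatases 9 were higher and 3 lower (12 and 3 with library totals alone). Over all 17291 genes, library totals alone gave 9008 calls in the interaction, 79.6% of them positive. Between genotypes with oxLDL that scaling gave 10840, of which 69.5% were higher in KO.

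For the 3 phosphatases with the highest mean FPKM over the 12 libraries, the genes with the most similar profile were sought among 17281 others, by the root mean square difference of gene-centred log2 values scaled to library size. For Dusp16 these were Malt1, a signalling protease of the NF-κB pathway, at 0.13, Slc7a11, which encodes a cystine transporter, at 0.14 and St3gal5, a sialyltransferase gene, at 0.15, where the median over all genes was 1.69. For Dusp4 they were Agrn at 0.16, the hexose transporter gene Slc2a6 at 0.18 and the NF-κB subunit gene Nfkb2 at 0.18 (median 1.62). Malt1 had 10.4 ± 0.39 FPKM in untreated WT, 63.6 ± 0.88 with oxLDL, and 6.35 ± 0.36 and 6.14 ± 0.19 in the KO groups. For Dusp7 the nearest were Utp3 at 0.079, Zkscan17 at 0.091 and Plxnb2 at 0.096 (median 0.52). This likeness is a description over 12 libraries that fall into 4 groups.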

How the data were processed

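The authors deposited 1 table with raw read counts and FPKM values per gene for each library, per the file headers. HISAT2 2.0, Bowtie 0.12.2 and the build mm8 are listed, with no role given, per the submitters' processing notes. How reads were counted, on which annotation and whether by strand is not given in the sources used here. Of 21990 rows matched to RefSeq by Entrez identifier, 99.93% overlapped their position on GRCm38.p6, as did all 10 phosphatase genes, so coordinates are the table's own, read as GRCm38. The labels' protocol text mentions an adipose type, which the source label does not.

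Counts were analysed with edgeR 4.0.16 in R 4.3.3, with TMM scaling, filterByExpr, and 1 quasi-likelihood fit of the 4 groups without a block. The call threshold was 0.05 for p-values adjusted by Benjamini-Hochberg across the 17291 tested genes, in each of 5 contrasts. Fold changes carry the standard error (SE), the log2 change divided by the root of its F statistic. Library totals of 53588814 counts or more limit precision mainly for Dusp8 and Dusp14. The floor of 3 counts covers counting error only. Exact tests of 3 against 3 libraries cannot go below p = 0.1, so none was used. The fit was tested on simulated counts, with few genes changed, in random directions, in WT with oxLDL. That setting does not cover the large share of called genes and the unequal TMM factors of these data. Alternatives were DESeq2 1.42.0, other scalings and filters, limma 3.58.1 on log2(FPKM + 1) or log2(FPKM + 0.1), a replicate block, fits of the compared groups alone and leaving out each library. All 10 phosphatases were named; pathway genes were named by the smallest interaction p. The members, lists and naming rules were chosen with earlier results of these data known.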

Additional observations from a re-analysis of the deposited data

Results flagged for a closer look

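The oxLDL change differed between genotypes for 6 of the 10 phosphatase genes, by the interaction term of edgeR's quasi-likelihood test. The KO change minus the WT change was -3.36 log2 for Dusp16, -2.42 for Dusp1, -2.14 for Dusp2 and -1.81 for Dusp4, each with a rise in WT that the test did not find in KO. For Dusp7 it was 0.43, from changes that passed the test in neither genotype. For Dusp14 the fitted value was -7.37, which rests on 0 counts in all 3 libraries of KO with oxLDL and is no bound on the size. Of all genes tested 41.7% were called in this term.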

How the results depend on the processing

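The calls of Dusp16, Dusp4, Dusp2 and Dusp1 that passed, other than the untreated genotype difference of Dusp1, kept their direction and passed under every alternative run, as did the rise of Dusp5 in WT and the genotype differences of Dusp6 and Dusp10. With oxLDL in KO, 1 phosphatase was called by DESeq2 (Dusp6) where edgeR called 0, and over all genes DESeq2 called 110, limma 1 and 0, and edgeR 2 with all groups, 61 with the compared groups alone and 0 to 57 without 1 library (57 without WT oxLDL replicate 1). Leaving out each library gave 6 to 7 called phosphatases for oxLDL in WT, 0 in KO, 7 to 8 for untreated genotypes, 6 to 8 with oxLDL and 5 to 7 for the interaction. Of the 17902 to 17973 genes tested in those runs, 8176 to 8905, 0 to 57, 4553 to 5480, 9422 to 10008 and 6681 to 7170 were called. Leaving out replicate 2 of both WT groups, an alternative chosen after seeing the data because these libraries were the shallowest, gave 6, 0, 8, 6 and 5. Over the 17754 genes then tested the calls were 7728, 7, 4754, 9470 and 6470. Correlations of same-numbered deviations ran from -0.045 to 0.031, so no strong shared effect of the replicate number was seen. With 3 libraries per group this cannot show whether same-numbered libraries were prepared together, which the labels do not say. The replicate block left the counts at 6, 0, 8, 7 and 6, with 0 genes called with oxLDL in KO. In the other comparisons, in the same order, it called 8603, 5056, 9767 and 6927 of 17291 genes.

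Signs turned only for values that did not pass. With library totals, limma with a pseudocount of 1 and limma with 0.1, KO against WT with oxLDL became 0.041, 0.036 and 0.045 for Dusp2 and 0.22, 0.20 and 0.22 for Dusp7 (0.018 with the upper quartile). The interaction became 0.17, 0.053 and 0.16 for Dusp5, 0.30, 0.21 and 0.29 for Dusp6 and 0.35, 0.090 and 0.23 for Dusp10 (-0.51 without replicate 2 of both WT groups). Dusp10 with oxLDL in WT was 0.021 with DESeq2 and 0.018 with RLE size factors, and 0.41 without replicate 2 of both WT groups. Without 1 library the ranges were -0.25 to 0.32 for Dusp10 in WT, -0.10 to 0.037 for Dusp2 and -0.65 to 0.0048 for Dusp8 in KO, -0.38 to 0.0029 for Dusp5 between untreated genotypes and -0.16 to 0.020 for Dusp7 between genotypes with oxLDL. The interaction ranged from -0.41 to 0.0090 for Dusp5 and from -0.41 to 0.16 for Dusp10. The cause of these turns was not tested. Dusp14 was left untested by the stricter filter, and depth limits Dusp8 and Dusp14, which had at most 121 and 48 counts in a library.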
